A study of Mus musculus with 4 samples.

Results

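The nuclear receptor family was followed in the ileum, the last stretch of the mouse small intestine. The 38 genes examined were taken by symbol from a list of receptors, and 36 were among the 21648 genes and unnamed transcripts tested. The rule uses no measured value, but the list was chosen with earlier results of these data known. The list leaves out 11 further receptors of the mouse, among them Ppara, Hnf4a and Nr1h4, which are described at the end. Of the 38 receptors, 36 were measured. The other two, Nr0b1 and Nr4a3, were not well above background on any array.

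Ileal total RNA came from C57BL/6J male mice aged 10 weeks. The study compared 2 control samples with 2 samples from mice given metformin by mouth at 1000 mg/kg. Metformin is a biguanide that lowers blood glucose, and the gut is exposed to it at high concentration after an oral dose. Neither the duration of treatment nor a vehicle is given, and no label says that the 2 samples of a group were different mice. A p-value here therefore reflects sample-to-sample scatter alone, some or all of which may be technical. The RNA was from whole ileal tissue as far as the labels say, so fewer cells of a type and less RNA per cell cannot be told apart.

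Nuclear receptors are transcription factors that carry a DNA-binding domain with zinc fingers and, in most members, a pocket for a small fat-soluble ligand. Steroid receptors bind DNA as homodimers, whereas the receptors for retinoic acid, thyroid hormone, vitamin D, oxysterols, fatty acids and xenobiotics pair with a retinoid X receptor (RXR), and several orphan receptors bind as monomers. In the small intestine the family is known for calcium uptake (vitamin D receptor), sterol and bile acid handling, drug metabolism and the identity of the absorptive epithelium.

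The promoters of the receptor genes were searched for the DNA letters that these receptors read. The hexamer AGGTCA is the classical binding element of the non-steroid members. It was searched on both strands in the 250 bases before each RefSeq transcription start (GRCm38.p6), and it occurred in 14.0% of 32851 such windows of the mouse. Among the receptors, 34 had a window in the table, 54 windows in all, and 9 of these windows, from 8 genes, held the hexamer. These genes were Nr0b1, Nr5a2, Nr6a1, Pparg, Rarg, Rxra, Rxrg and Thrb. The share of receptor windows with the hexamer was close to the 14.0% of all windows, so it does not set these promoters apart. No window was found there for Hnf4g, Nr3c1, Nr5a1 or Thra. Direct repeats were searched more loosely. Each arm could be AGGTCA itself or a near variant of it. The first variant allowed was AGTTCA, which natural elements often carry. The next variant that the search allowed was GGGTCA. The last variant that the search allowed was GGTTCA. Repeats with 1 to 4 bases between the arms were in none of the receptor windows, and were in 0.164%, 0.174%, 0.0396% and 0.067% of all windows. The repeat with 5 bases between, the arrangement preferred by the retinoic acid receptor paired with RXR, was in 29 windows of the mouse (0.0883%), and Rarb was the only receptor of the list among them. There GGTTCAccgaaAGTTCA lies 53 to 37 bases before the start. This is the element through which retinoic acid is known to induce Rarb. The sequences below are those of Rarb, of both RXR genes whose groups did not overlap, and of Nr5a2, printed in the direction of transcription with the matched hexamers in capitals. A match describes letters, not a site that is bound in the ileum.
Rarb, chr14:16575477-16575726, minus strand: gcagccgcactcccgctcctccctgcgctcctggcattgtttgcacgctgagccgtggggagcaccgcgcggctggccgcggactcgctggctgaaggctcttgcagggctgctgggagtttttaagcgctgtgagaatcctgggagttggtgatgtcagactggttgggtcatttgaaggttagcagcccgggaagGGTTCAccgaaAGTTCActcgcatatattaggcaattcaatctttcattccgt
Rxra, chr2:27709042-27709291, plus strand: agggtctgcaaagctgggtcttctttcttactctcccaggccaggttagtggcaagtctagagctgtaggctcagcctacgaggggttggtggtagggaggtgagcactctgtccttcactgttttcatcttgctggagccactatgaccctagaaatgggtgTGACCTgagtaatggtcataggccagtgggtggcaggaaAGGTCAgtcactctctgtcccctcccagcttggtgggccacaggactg
Rxrg, chr1:167618015-167618264, plus strand: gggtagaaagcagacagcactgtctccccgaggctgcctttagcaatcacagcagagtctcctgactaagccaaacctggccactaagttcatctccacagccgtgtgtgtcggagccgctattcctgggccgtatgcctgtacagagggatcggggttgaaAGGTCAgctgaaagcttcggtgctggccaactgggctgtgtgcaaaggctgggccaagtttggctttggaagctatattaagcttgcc
Nr5a2, chr1:136960449-136960698, minus strand: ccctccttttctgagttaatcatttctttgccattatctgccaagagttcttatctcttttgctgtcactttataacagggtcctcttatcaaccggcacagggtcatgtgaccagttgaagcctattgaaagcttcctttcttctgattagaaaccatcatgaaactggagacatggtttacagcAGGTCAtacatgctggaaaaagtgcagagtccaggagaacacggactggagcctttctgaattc

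Rxra holds a hexamer on each strand, at 87 to 82 and at 48 to 43 bases before the start, and the first reads TGACCT on the printed strand. Rxrg has 1 match, at 88 to 83 bases, and Nr5a2 has 1, at 64 to 59 bases.

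All values below are log2 signals relative to the 75th percentile of the array, so that 0 is the signal of a probe at that percentile and a difference of 1 is a doubling. They compare a gene with itself across samples, since probes differ in brightness for reasons other than RNA level. Differences are metformin minus control with their standard error, from 2 samples per group. Each array had 66.195% to 69.916% of its spots well above background, none was saturated, and the 75th percentile signals lay between 864 and 1453. Controls 1 and 2 lay at slide positions 1 and 2 and metformin 1 and 2 at positions 3 and 4, so slide position and treatment cannot be told apart. With 2 samples against 2, an exact permutation test of a single gene cannot go below p = 0.333, so a gene's groups were described as apart when both metformin values lay beyond both control values. Such separation says how the values lie and is not a test.

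No nuclear receptor differed between metformin and control after adjustment over all genes. With limma, 0 of the 36 measured receptors and 0 of all 21648 genes (0.0%) had an adjusted p under 0.05, the lowest adjusted p of any gene being 0.9996. At an unadjusted p under 0.05, limma gave 1 receptor of 36 (2.78%), Rora, beside 347 of all genes (1.6%), where that threshold alone would give 1082 if no gene differed. The median difference over the receptors was 0.11, beside 0.06 over all genes, with 21 receptors above 0 and 15 below. Metformin lay above control without overlap for 5 receptors (13.9%), beside 12.5% of all genes. Metformin lay below control for 7 (19.4%), beside 8.46% of all genes. This split moved with the scaling. It was 3 higher and 8 lower when the percentile was taken over probes above background on all arrays (all genes 9.06% and 10.6%). With normexp background correction it was 4 and 2 (all genes 10% and 5.23%). It was 0 and 14 in the unscaled table that the authors deposited (all genes 1.35% and 17.8%), in which the median of all genes is -0.17.

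**Figure D1:**
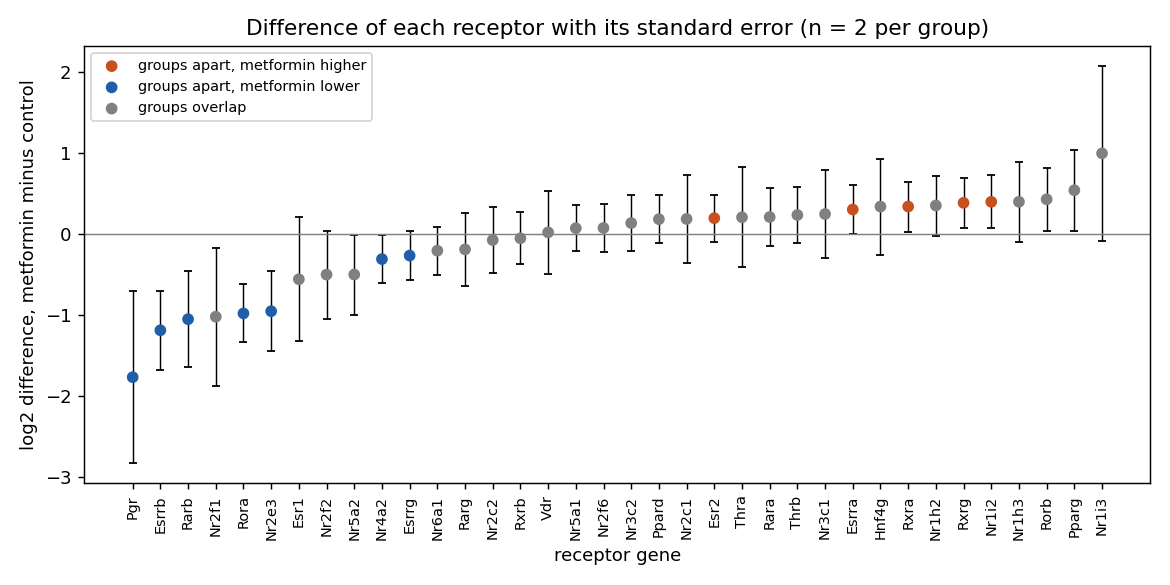
Log2 difference (metformin minus control) of each of the 36 measured receptors, points with standard error bars from limma, n = 2 per group, coloured by whether the groups were apart. The differences run from -1.77 (Pgr) to 1.00 (Nr1i3), and these extremes have wide bars.

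The retinoid X receptors are the shared partners of the family. Controls 1 and 2 read -1.91 and -2.15 for Rxra, and metformin 1 and 2 read -1.51 and -1.86. Its groups were apart by 0.05 at their nearest values, and the difference was 0.34 (SE 0.31). A second Rxra probe, above background on all 4 arrays, overlapped, at -2.40 and -3.25 against -2.28 and -2.94 (0.22). Rxrg was 1.31 and 1.18 in the controls and 1.82 and 1.45 in the metformin samples, a difference of 0.39 (SE 0.30) that was larger than the gap between the samples of either group. A second probe for Rxrg, above background on 1 array only, went the other way (-1.24), so the direction of Rxrg rests on 1 of its probes. Rxrb was 2.74 and 2.46 in the controls and 2.77 and 2.33 in the metformin samples, and its groups overlapped, with a difference of -0.05 (SE 0.32).

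The receptors for retinoic acid differed in direction among themselves. Rarb was -4.27 and -5.70 in controls 1 and 2 and -5.73 and -6.34 in metformin 1 and 2, a difference of -1.05 (SE 0.59, limma adjusted p = 0.9996). Only 0.03 separated control 2 from metformin 1, and the difference was -0.33 without control 1, -0.15 with normexp and -0.29 in the deposited table once scaled. Rara, the receptor present in most tissues, was 3.41 and 2.88 in the controls and 3.57 and 3.14 in the metformin samples, and its groups overlapped (0.21, SE 0.36). Rarg, best known from skin, ran from -1.11 to -0.03 over the 4 samples, both extremes being controls (-0.19, SE 0.45). The genes that make, carry or break down retinoic acid and the other ligands numbered 30, of which 25 were measured, with 1 higher and 4 lower without overlap (all genes 12.5% and 8.46%) and a median difference of 0.18. Aldh1a2, which makes retinoic acid, was among the lower ones, at -1.89 and -2.80 in the controls and -3.01 and -3.52 in the metformin samples (-0.92, SE 0.45). Of 8 targets of the retinoic acid receptors 7 were measured, with a median difference of -0.01. Cyp26a1, the retinoic acid hydroxylase that is their usual marker, was not well above background.

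The thyroid hormone receptors overlapped between groups. Thra was 3.94 and 3.01 in the controls and 4.36 and 3.01 in the metformin samples (0.21, SE 0.62), so that the samples numbered 2 read alike in both groups. Thrb lay between -0.97 and -0.30 (0.24, SE 0.34). All 6 thyroid hormone targets were measured and 3 were lower without overlap, beside 8.46% of all genes. Thrsp, a regulator of fatty acid synthesis also abundant in fat tissue, was -2.43 and -1.33 in the controls and -5.01 and -6.61 in the metformin samples (-3.93, SE 0.71, limma adjusted p = 0.9996). Of 8 adipocyte markers 7 were measured (Lep was not), and 6 were lower without overlap (all genes 8.46%). The exception, Cidec, overlapped, at 3.30 and 2.76 in the controls and 4.47 and 2.73 in the metformin samples (0.57, SE 0.67). The median of the 7 against the control mean was -0.56 and 0.56 in the controls and -2.06 and -3.64 in the metformin samples. Their summed level, in units of the array percentile, was 14.5 and 16.3 in the controls and 23.6 and 7.07 in the metformin samples. Cidec had the highest value of the 7 in every sample, so it weighs most in this sum. The part of the adipocyte markers in the Thrsp values was not tested. Hr, a corepressor, and Klf9, a transcription factor, were the other two (-0.56, SE 0.35 and -0.26, SE 0.28), and Dio1, a deiodinase that activates thyroid hormone, overlapped (0.49, SE 0.60).

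Vdr, the vitamin D receptor that drives intestinal calcium uptake, was 4.24 and 3.35 in the controls and 4.28 and 3.36 in the metformin samples. The group means were thus within 0.02 of each other (SE 0.51), while the samples of each group were 0.88 and 0.92 apart. Of 6 target genes 4 were measured, none with the groups apart, and the hydroxylase Cyp24a1 was not well above background.

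The oxysterol receptors (LXRs), which sense cholesterol derivatives, were highest in metformin 1. Nr1h3 (LXR alpha) was 3.26 and 2.59 in the controls and 3.84 and 2.81 in the metformin samples (0.40, SE 0.49). Nr1h2 (LXR beta) was 3.65 and 3.34 against 4.18 and 3.51 (0.35, SE 0.37). Metformin 2 lay between the controls for both genes. All 9 LXR targets were measured, none with the groups apart, and their median was 0.27 and -0.27 in the controls and 0.98 and -0.08 in the metformin samples. Abca1, the cholesterol exporter, showed the same layout at 0.49, -0.04, 2.32 and -0.03 in that sample order (0.92, SE 0.86).

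The xenobiotic receptors PXR (Nr1i2) and CAR (Nr1i3) control drug-metabolising enzymes. Nr1i2 was 2.74 and 2.40 in the controls and 3.17 and 2.77 in the metformin samples, apart by 0.03 at the nearest values (0.40, SE 0.33). Control values of Nr1i3 were -0.60 and -1.50, whereas metformin 1 read 1.44 and metformin 2 read -1.55. The metformin samples were thus 2.98 apart, and the difference of 1.00 (SE 1.08) became -0.49 without metformin 1. Their 11 targets, of which 9 were measured, had a median difference of 0.56, none with the groups apart. In 9 of 9 the samples numbered 2 lay below those numbered 1, beside 38.2% of all genes. Cyp3a11, the main mouse cytochrome under PXR, was 4.09 and 2.26 in the controls and 6.14 and 2.73 in the metformin samples (1.26, SE 1.33). Cyp2b10, a classical CAR target named after its values were seen, was 2.80, 2.11, 6.58 and 0.87. Metformin 1 was highest for both enzymes and for Nr1i3. Of 10 markers of the proximal small intestine 9 were measured (Pdx1 was not well above background), and 7 of these were also highest in metformin 1 while Slc40a1 and Cybrd1 were lowest there, with medians of 0.30 and -0.30 in the controls and 2.12 and -0.48 in the metformin samples and summed levels of 299.8 and 168 against 1021 and 142. Of the 6 distal ileum markers, all measured, 5 were lowest in metformin 1 and Cubn was highest there, with summed levels of 714 and 473 in the controls and 164 and 663 in the metformin samples. The part of these markers in the receptor values was not tested.

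Of the fatty acid receptors, Ppard was 3.06 and 2.85 in the controls and 2.99 and 3.29 in the metformin samples (0.18, SE 0.30). Pparg, the regulator of fat cell formation that is also found in gut epithelium, was 0.24 and 1.38 in the controls and 1.60 and 1.10 in the metformin samples. Its difference of 0.54 (SE 0.50) became -0.03 without control 1. All 12 PPAR targets were measured. Acaa2, a fatty acid oxidation enzyme, was the 1 with the groups apart, higher by 0.29 (SE 0.29), beside 12.5% of all genes higher. Pdk4, a brake on glucose oxidation, overlapped (0.21, SE 0.62).

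Among the steroid receptors the glucocorticoid receptor Nr3c1 was 4.44 and 3.40 in the controls and 4.62 and 3.71 in the metformin samples (0.25, SE 0.54). The mineralocorticoid receptor Nr3c2 was -3.30 and -3.91 against -3.36 and -3.57 (0.14, SE 0.35). Both overlapped. Their targets numbered 13, of which 11 were measured, with 2 higher and 2 lower without overlap (all genes 12.5% and 8.46%) and a median of 0.25. Sgk1, a kinase of sodium transport, was 3.72 and 3.34 in the controls and 4.63 and 4.17 in the metformin samples (0.87, SE 0.34). Zbtb16, a zinc finger factor, was -2.98 and -1.93 against -4.27 and -3.66 (-1.51, SE 0.49), and Cdkn1a, a cell cycle inhibitor, was 0.50 higher (SE 0.31). Neither direction was shared by Fkbp5, the chaperone often used as a glucocorticoid marker, which read 0.85 and 3.82 in the controls and 0.09 and 3.79 in the metformin samples and thus separated the sample numbers, not the treatments.

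The sex steroid receptors had small or poorly measured differences. Pgr, the progesterone receptor, was -5.78 and -5.80 in the controls and -9.08 and -6.03 in the metformin samples. Metformin 1 was not above background there, so the difference of -1.77 (SE 1.06) has no firm size. It was -0.25 without metformin 1, -0.03 with normexp and -0.26 in the scaled deposited table. Esr1 (oestrogen receptor alpha) was also above background on both controls and metformin 2 alone, at -5.92 and -7.20 in the controls and -7.96 and -6.27 in the metformin samples, and its groups overlapped (-0.56, SE 0.76, but 0.21 with normexp). Esr2 (oestrogen receptor beta) was 1.18 and 1.04 against 1.43 and 1.18. The nearest values of its groups were 0.0004 apart, and the difference of 0.20 (SE 0.29) was -0.04 in the deposited table as it stands.

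The oestrogen-related receptors bind no oestrogen and control genes of mitochondrial energy production, and the 3 members differed in direction. Esrra was 5.76 and 5.51 in the controls and 6.10 and 5.77 in the metformin samples, apart by 0.02 (0.30, SE 0.31). Esrrb was -3.61 and -4.66 in the controls and -5.61 and -5.04 in the metformin samples. Its difference of -1.19 (SE 0.49, limma adjusted p = 0.9996) was larger than the gaps of 1.06 and 0.57 within the groups. It was -0.66 without control 1 and -0.63 in the scaled deposited table, and with normexp it was -0.33 and the groups overlapped. Esrrg was -4.26 and -4.24 against -4.33 and -4.70 (-0.26, SE 0.30), and its difference was 0.03 with normexp background correction. By a second kept probe of Esrrg the groups overlapped (-0.20). All 8 targets of these receptors were measured, with 3 higher without overlap, none lower (all genes 12.5% and 8.46%) and a median of 0.25. Cycs, encoding cytochrome c, was 6.14 and 6.11 in the controls and 6.44 and 6.45 in the metformin samples (0.32, SE 0.27).

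The retinoic acid-related orphan receptors hold the receptor with the lowest p. Rora, which acts in the circadian clock and in lymphoid cells, was -4.28 and -4.78 in controls 1 and 2 and -5.74 and -5.27 in metformin 1 and 2. Both metformin samples lay 0.49 or more below the nearer control, and the difference of -0.98 (SE 0.36) had a limma adjusted p = 0.9996. It was -0.39 in the scaled deposited table, and with normexp it was -0.12 and the groups overlapped. Rorb, known from brain and retina, was -4.85 and -5.18 against -4.21 and -4.96 and overlapped (0.43, SE 0.39). Nr2e3, a photoreceptor factor, was -2.60 and -2.71 in the controls and -4.21 and -3.00 in the metformin samples (-0.95, SE 0.49). Metformin 1 was the lowest, and without it the difference was -0.34, while with normexp it was -0.48.

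**Figure D2:**
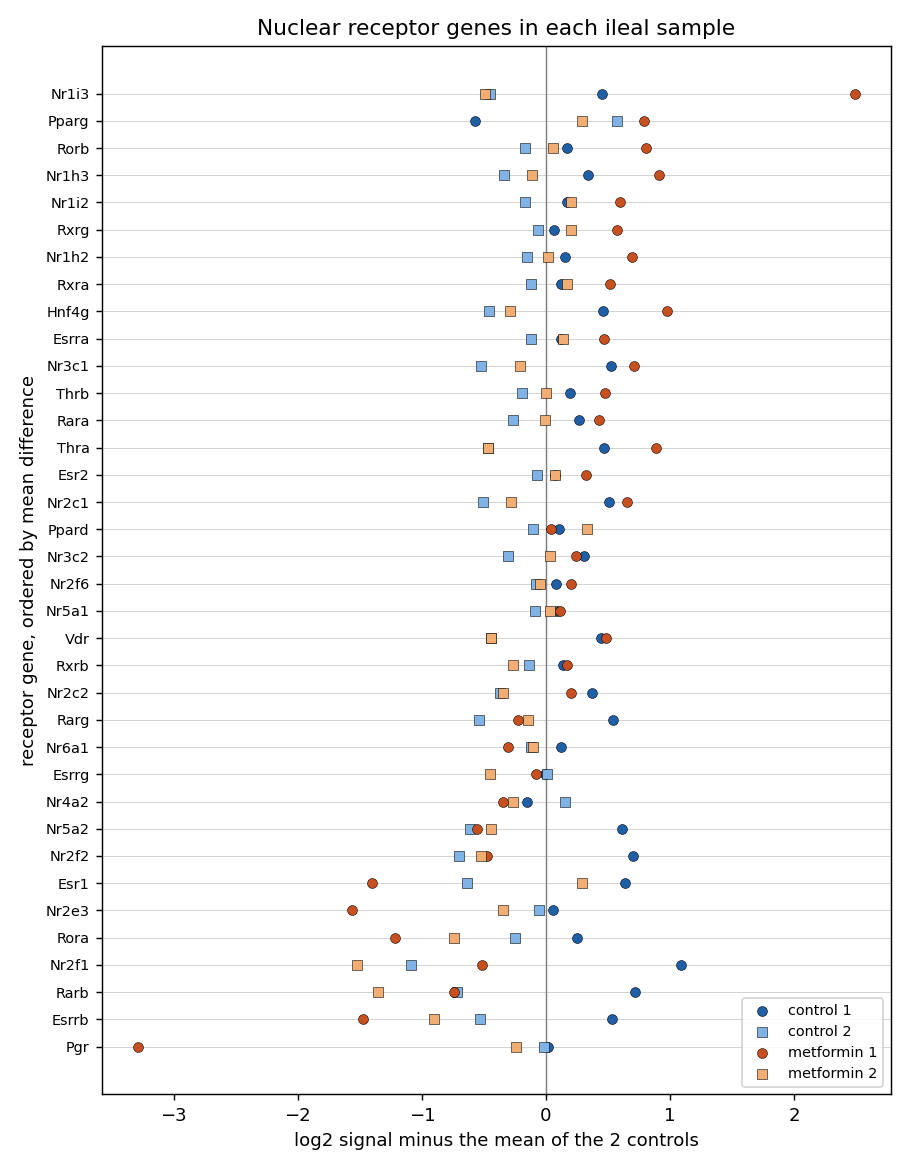
Log2 signal of each of the 36 measured receptors in each of the 4 samples, minus the mean of the 2 controls, ordered by mean difference. Metformin 1 (dark orange circles) held the highest value for 20 receptors (55.6%, beside 38.5% of all genes). Control 2 (light blue squares) held it for 2 (5.56%, beside 19.4%).

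The COUP transcription factors Nr2f1 and Nr2f2, which are typical of mesenchyme, vessels and nerve, were highest in control 1. Nr2f1 was -2.41 and -4.59 in controls 1 and 2 and -4.02 and -5.02 in metformin 1 and 2. Its difference of -1.02 (SE 0.85) was 0.07 without control 1, -0.48 with normexp and -0.69 in the scaled deposited table. It was -1.69 with the mean of the kept probes. The second Nr2f1 probe, dimmer and above background on 2 arrays only, had the groups apart. It read -4.96 and -6.86 in the controls and -7.62 and -8.94 in the metformin samples (-2.36). Nr2f2 was 0.01 and -1.39 against -1.17 and -1.21 (-0.50, SE 0.54), and 0.20 without control 1. Nr2f1 was lowest in metformin 2 and Nr2f2 in control 2. Smooth muscle markers were highest in control 1 too, 8 of 8 measured, beside 21.9% of all genes. Unlike these receptors, 6 of the 8 markers were lowest in metformin 1. Of 10 markers 8 were measured (Lmod1 and Myocd were not well above background), 6 were lower without overlap (all genes 8.46%), their median was 2.40 and -2.40 in the controls and -3.68 and -2.63 in the metformin samples, and their summed level was 137 and 7.67 against 5.33 and 6.32. Fibroblast markers were also lower with metformin, 9 of 10 without overlap beside 8.46% of all genes, with summed levels of 42.9 and 21.3 in the controls and 19.3 and 7.36 in the metformin samples. Of 9 enteric neuron and glia markers measured, 8 were highest in control 1 and 2 were lower without overlap. Endothelium markers went less with control 1. Of the 7 measured, 1 was highest there and 4 in control 2, and 4 were lower without overlap. The part of these markers in the values of Nr2f1, Nr2f2, or of the other receptors lower with metformin, was not tested.

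Nr2f6, the third COUP family gene, was 3.78 and 3.62 in the controls and 3.90 and 3.65 in the metformin samples (0.08, SE 0.29). The testicular receptors Nr2c1 and Nr2c2, orphan regulators found in many tissues, overlapped as well, at 0.19 (SE 0.54) and -0.07 (SE 0.41). Nr5a2 (LRH-1), which supports crypt cell renewal and local steroid synthesis in the gut, was 1.54 in control 1 and 0.32, 0.37 and 0.49 in control 2, metformin 1 and metformin 2. By this probe its difference of -0.50 (SE 0.49) rested on control 1, and without that sample it was 0.11. A second kept probe of Nr5a2 read -2.91 and -2.92 in the controls and -4.01 and -2.79 in the metformin samples. Its difference was similar (-0.49), but there metformin 1 was the sample set apart. Of its 5 targets 3 were measured and 1, the cyclin gene Ccnd1, was lower without overlap (-0.85, SE 0.48), beside 8.46% of all genes. The steroid synthesis enzyme Cyp11a1 was not well above background.

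Hnf4g, an epithelial factor of the intestine, was 1.48 and 0.56 in the controls and 1.99 and 0.73 in the metformin samples (0.34, SE 0.59). Nr4a2, an immediate early orphan receptor, was -2.27 and -1.97 in the controls and -2.47 and -2.39 in the metformin samples. Its groups were apart, and the difference of -0.31 (SE 0.29) was only just larger than the 0.30 between the controls. By a second kept probe of Nr4a2 the groups overlapped (-0.22). Nr5a1, the steroidogenic factor of adrenal and gonad, and Nr6a1, the germ cell nuclear factor, overlapped with differences of 0.07 (SE 0.28) and -0.20 (SE 0.29).

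Separation between the sample numbers was more frequent than separation between the treatments. In 18 of the 36 receptors both samples numbered 2 lay below both samples numbered 1, beside 38.2% of all genes. In none did both lie above, beside 27.6% of all genes. Among the 18 were Vdr, Thra, Nr3c1, Nr1h2, Nr1h3, Rara and Hnf4g. The median difference of the samples numbered 2 from those numbered 1 was -0.39 over the receptors and -0.12 over all genes. Metformin 1 held the highest value for 20 receptors (55.6%, beside 38.5% of all genes), control 1 for 13 (36.1%, beside 21.9%), control 2 for 2 (5.56%, beside 19.4%) and metformin 2 for 1 (2.78%, beside 20.2%). Of 8 enterocyte markers, all measured, 6 were lower in both samples numbered 2 and 2 were higher, beside 38.2% and 27.6% of all genes. The part of these markers in the receptor values was not tested. The labels give the numbers no meaning beyond naming the samples.

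**Figure D3:**
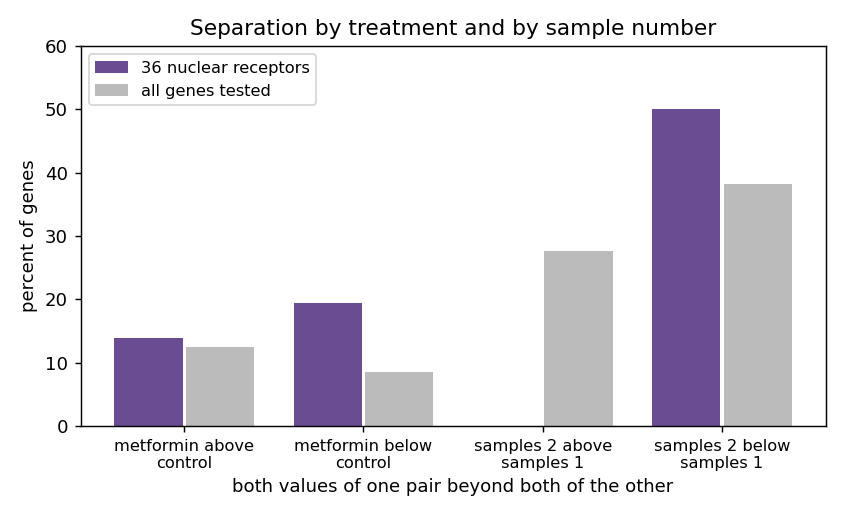
Percent of the 36 receptors (purple) and of all 21648 genes (grey) whose 2 values of one pair lay beyond both values of the other pair, by treatment and by sample number. The tallest purple bar is the share of receptors lower in both samples numbered 2 (18 of 36), and no receptor was higher in both.

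Measured against the size of the scatter, few receptors stood out. A difference larger than the gap within each group was found for 4 of 36 (11.1%), Esrrb, Nr4a2, Rora and Rxrg, beside 12.5% of all genes. A difference of at least 2-fold was found for 4 (11.1%, beside 4.81% of all genes): Esrrb, Rarb, Pgr and Nr2f1. In 3 of these, all but Nr2f1, metformin lay below control without overlap (8.33%, beside 2.31%), and no receptor was at least 2-fold higher without overlap (0.633% of all genes). Pgr is among these only through a value that was not above background. Over genes above background on all 4 arrays, 3 of 34 receptors (8.82%) differed at least 2-fold, beside 3.68% of such genes, and 2 (5.88%) were lower without overlap, beside 1.9%. The receptors' count rested on how background was treated: none differed at least 2-fold with normexp (1.33% of all genes), in the deposited table as deposited (3.11%) or in that table once scaled (2.06%). The probes of these 4 genes lay below the array percentile in every sample.

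The 11 receptors outside the list, which include Ppara, Hnf4a, the bile acid receptor Nr1h4 and the clock repressors Nr1d1 and Nr1d2, gave 9 measured genes. Their differences had a median of 0.23. The 18 coregulators, which link receptors to chromatin enzymes, were all measured. Of these Ncoa6 and Hdac3 were higher without overlap (0.12, SE 0.27 and 0.25, SE 0.30) and Nrip1 was lower (-0.13, SE 0.28). All genes gave 12.5% higher and 8.46% lower. The median of the coregulators was 0.03. Among the other ligand genes, Cyp7b1, an oxysterol hydroxylase, was at -3.68 and -4.91 in the controls and -5.78 and -7.66 in the metformin samples (-2.42, SE 0.81, limma adjusted p = 0.9996). Only 1 of its metformin values was well above background, so this difference has no firm size either. Ch25h, which makes an oxysterol, was lower without overlap (-0.81, SE 0.36). Dio3, which inactivates thyroid hormone, was higher without overlap (0.43, SE 0.30).

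**Figure D4:**
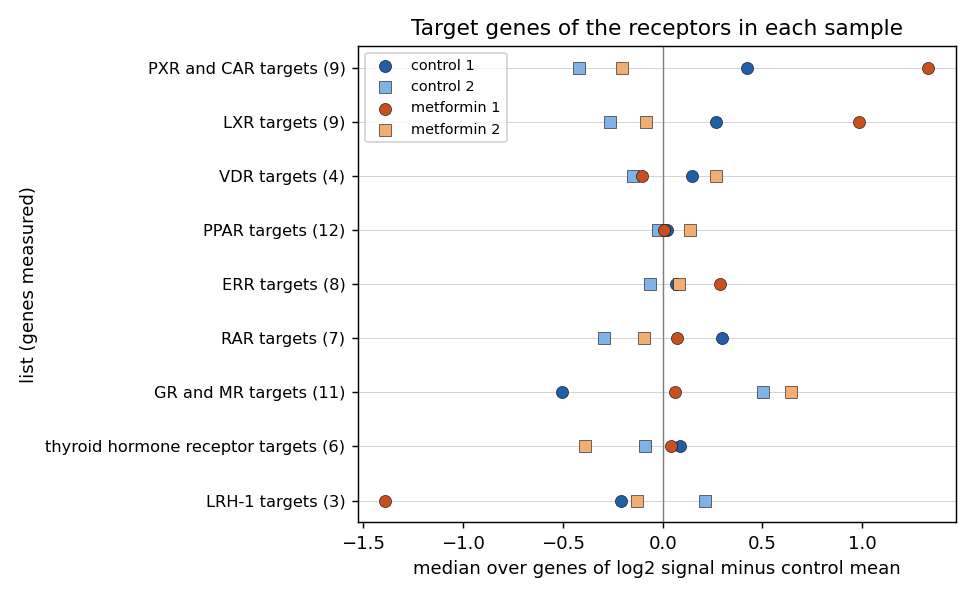
Median over the measured target genes of each receptor of the log2 signal minus the control mean, in each of the 4 samples, with the number of genes in brackets. PXR and CAR targets (0.42 and -0.42 in the controls, 1.33 and -0.21 with metformin) and LXR targets were highest in metformin 1, and metformin 2 lay between the controls for both.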

How the data were processed

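Spot intensities on a linear scale, from Agilent Feature Extraction 10.7.3.1, which per the file headers had removed background and spatial trends on each array, were taken as log2 minus each array's 75th percentile. Spots with outlier flags were left out, spots of a probe were averaged, and a probe was kept when 1 group or both had it well above background in each sample (26440 of 39429). Accessions matched to RefSeq named 27508 probes, and the brightest kept probe stood for a gene. The intensity table that the authors deposited equalled the raw median spot signal for all 39030 probes with 1 spot and served as an alternative. Control and metformin (2 samples each) were compared two-sided in R 4.3.3 using limma 3.58.1 (lmFit, then eBayes), with Benjamini-Hochberg adjustment over all genes, after the fit was tested on simulated data. The normexp alternative used the median spot signal, since no mean signal column was present, and added an offset of 50. Members and lists were chosen with earlier results of these data known. Every sample's value was given for members that were apart, at least 2-fold different or established in the intestine. Of each list, up to 3 genes of smallest p and its key target could be named, and Cyp2b10, Aldh1a2, Dio3, Ncoa6 and Nrip1 were named after their values were seen. Header build mm9 differs from GRCm38.p6, so no probe coordinates are given. Some genes of the lists are not reported here.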

Additional observations from a re-analysis of the deposited data

How the results depend on the processing

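No receptor and no gene passed the adjusted threshold in limma under any alternative tried or without any 1 sample. Receptors without overlap were 5 higher and 7 lower (all genes 12.5% and 8.46%). They became 3 and 8 with the percentile over probes above background on all arrays (all genes 9.06% and 10.6%). With normexp they were 4 and 2 (10% and 5.23%), and with quantile normalization 4 and 4 (14.1% and 7.77%). The deposited table as it stands gave 0 higher and 14 lower (1.35% and 17.8%). That table once scaled gave 3 higher and 4 lower (11% and 6.27%). Leaving out 1 sample gave 6 to 23 higher (23 without control 1, 20 without metformin 2, beside 43.1% and 42.7% of all genes) and 7 to 15 lower (15 without control 2, beside 25% of all genes), where 3 values separate more easily than 4. The median difference of 0.11 was -0.16 in the deposited table as it stands and ran from -0.18 (without control 2 or metformin 1) to 0.29 (without control 1). Among the receptors whose groups did not overlap the direction turned for Esr2 (-0.039, deposited table as it stands) and Esrrg (0.0292, normexp). Of the 36 receptors 23 kept their sign in 8 of 8 alternatives with all samples, 16 without each sample in turn and 13 in both. The sign turned in at least 1 alternative with all samples for the other 13 of the 36, of which 11 had overlapping groups, such as Esr1 (-0.56, but 0.2098 with normexp) and Vdr. The separation of Nr2e3 held in 8 of the 8 and that of Esrrb, Rora and Rxrg in 7. It held in 6 for Nr1i2 and Rarb, in 5 for Esr2, Nr4a2 and Pgr, and in 4 for Esrra, Esrrg and Rxra. With the sample number as a replicate block, 0 genes passed in limma (lowest adjusted p = 0.631), 1539 had an unadjusted p under 0.05 instead of 347, and 1 receptor did. The labels do not say that the numbers pair the samples, and with only 2 pairs the data cannot settle it. Samples of the same number deviated together across genes (r = 0.56, over receptors 0.20, across genes, which are not independent). Limits lie in 2 samples per group and in dim probes such as those of Pgr and Esr1.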
